A study of Neurospora crassa with 22 samples.

Results

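The 6 genes examined belong to the MAK-2 pathway, through which germlings of *Neurospora crassa* find and fuse with each other. They were followed in RNA-seq libraries of an *hH1* mutant and of the wild type. The genes were chosen by name, with earlier results of these data known: *nrc-1* (NCU06182), *mek-2* (NCU04612), *mak-2* (NCU02393), *ham-5* (NCU01789), *pp-1* (NCU00340) and *so* (NCU02794). They are 6 of 9730 genes, and 9 of 10785 annotated transcripts, in the table of expression values. The *hH1* gene encodes the linker histone H1, which binds nucleosomes and the DNA between them. The *hH1* group comprised 3 libraries and the wild-type group 3 libraries, and in both groups conidia were grown for 5 hr in Vogel's minimal medium before RNA was extracted. No other allele or agent is named for these libraries, and the labels do not say which *hH1* mutant strain or which wild-type strain was used. Column names of the table show only the strain of a library, so libraries are numbered here by their order in the table within each strain.

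In this pathway NRC-1 is the MAP kinase kinase kinase, which activates the MAP kinase kinase MEK-2, which in turn activates the MAP kinase MAK-2. HAM-5 is the scaffold that holds these kinases together, and PP-1 is a transcription factor of the Ste12 family that acts downstream of MAK-2. As facing germlings grow toward each other, MAK-2 and the SO (SOFT) protein appear in turn at the cell tips, so that a tip holding MAK-2 faces a tip holding SO.

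Expression is given as FPKM, the fragments assigned to a transcript divided by its length and by the number of mapped fragments, with the transcripts of a gene summed. FPKM near 0 is a multiple of what a single fragment adds, and the depth estimated from such multiples was 5740000 to 9180000 fragments in the *hH1* libraries and 6470000 to 11300000 fragments in the wild-type libraries. The estimates are rough, since they rest on 3 to 9 low values per library. The highest of the *hH1* estimates, that of the first *hH1* library, rests on 3. At these depths, *so* was represented by at most 210 to 790 fragments per library and *mak-2* by at most 2440 to 5020. These are upper limits, because they count the whole gene length as exon. As a check of the labels, *hH1* itself (NCU06863) was at 9.35, 2.06 and 3.22 FPKM in the *hH1* libraries, against 266, 327 and 293 FPKM in the wild-type libraries. The first *hH1* library listed 2185 genes at 0, against 1673 and 1679 in the other *hH1* libraries and 1577 to 1712 in the wild-type libraries. The tissue is labelled mycelium, and the hyphal markers *hex-1*, *cot-1* and *gs-1* were present in every library, with a summed level of 5761 to 6020 FPKM in *hH1* and 3279 to 5141 FPKM in the wild type, nearly all of it from the Woronin body gene *hex-1*. The summed level of 5 conidial markers was 18.9 to 22.4 FPKM in *hH1* and 14.5 to 22.1 FPKM in the wild type. That of 5 genes of sexual development was 26.3 to 27.5 FPKM in *hH1* and 32.1 to 40.1 FPKM in the wild type, nearly all of it from *asd-1* and *asd-4*. None of these 13 marker genes was at 0 in all 6 libraries, and *con-6*, *con-10*, *asd-3*, *fmf-1* and *poi-2* averaged at most 1.08 FPKM in either strain. Of the 13, 8 were tested and 0 were called (limma, adjusted p of 0.0586 for *hex-1* to 0.818 for *con-8*), while *hex-1* and *asd-4* had an unadjusted p under 0.05. *hex-1* was higher in *hH1* without overlap (log2 change 0.62). It was called with each library centred on its median (limma, adjusted p = 0.0439) and with the filter raised to a mean of 5 FPKM (adjusted p = 0.0457). The part of these differences in the results below was not tested.

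The first question was how strongly each gene of the pathway was expressed in germlings of either strain. FPKM is scaled to length, so that levels can be set side by side between genes. The order was led by the kinases at the end of the cascade, and it ran from *mak-2* over *mek-2*, *pp-1* and *ham-5* to *so* and *nrc-1* in the wild type. The MAP kinase gene *mak-2* (LG VII 2654598 to 2657461 of the NC12 assembly) was at 158, 151 and 160.0 FPKM in the *hH1* libraries, against 163, 169 and 168 FPKM in the wild-type libraries. This placed it between the percentiles 94.1 and 94.8 of all genes in every library. The MAP kinase kinase gene *mek-2* (LG V, bases 1501026 to 1504190) measured 39.7, 43.6 and 44.8 FPKM in the *hH1* libraries, against 49.9, 42.7 and 50.5 FPKM in the wild-type libraries. Its groups overlapped, since wild-type library 2 lay below *hH1* libraries 2 and 3. The MAP kinase kinase kinase gene *nrc-1* (LG III 1804191 to 1808733) was the lowest of the kinase genes, at 9.17, 12.04 and 13.5 FPKM in the *hH1* libraries, against 16.2, 13.8 and 15.3 FPKM in the wild-type libraries. Its groups did not overlap, although *hH1* library 3 and wild-type library 2 were close. Each step of the cascade was thus higher in RNA level than the step above it, in every library. The order was not special to this pathway. It held in every library for the osmosensing kinase genes *os-4*, *os-5* and *os-2*. For the cell wall kinase genes *mik-1*, *mek-1* and *mak-1* it held in all but wild-type library 1, where *mek-1* was slightly above *mak-1*. Gene length fell from *nrc-1* (4543 bases) over *mek-2* (3165) to *mak-2* (2864), and its part in the order was not tested.

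The scaffold gene *ham-5* (LG II 2433075 to 2439647) was at 16.7, 14.7 and 15.2 FPKM in the *hH1* libraries, against 26.1, 19.9 and 26.4 FPKM in the wild-type libraries. The second wild-type library was the lowest of its group but still lay above each *hH1* library. The transcription factor gene *pp-1* (LG III 3507722 to 3512003) was at 20.0, 17.0 and 20.4 FPKM in the *hH1* libraries, against 26.3, 23.7 and 28.5 FPKM in the wild-type libraries, without overlap. The tip protein gene *so* (LG I 9109342 to 9114311) was at 6.49, 8.73 and 7.67 FPKM in the *hH1* libraries, against 15.1, 16.7 and 14.7 FPKM in the wild-type libraries. The *hH1* libraries of *so* lay far below the wild-type libraries, with a gap between the groups larger than the range within either. In the order of levels, the neighbours *pp-1* and *ham-5*, and likewise *so* and *nrc-1*, overlapped in the wild type. In *hH1* these neighbours were apart by narrow gaps, with *ham-5* at up to 16.7 and *pp-1* from 17.0 FPKM. Likewise *so* was at up to 8.73 and *nrc-1* from 9.17 FPKM, and *so* was the lowest of the 6 genes in every *hH1* library. Within each library of either strain, *pp-1* was above *ham-5*.

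**Figure D1:**
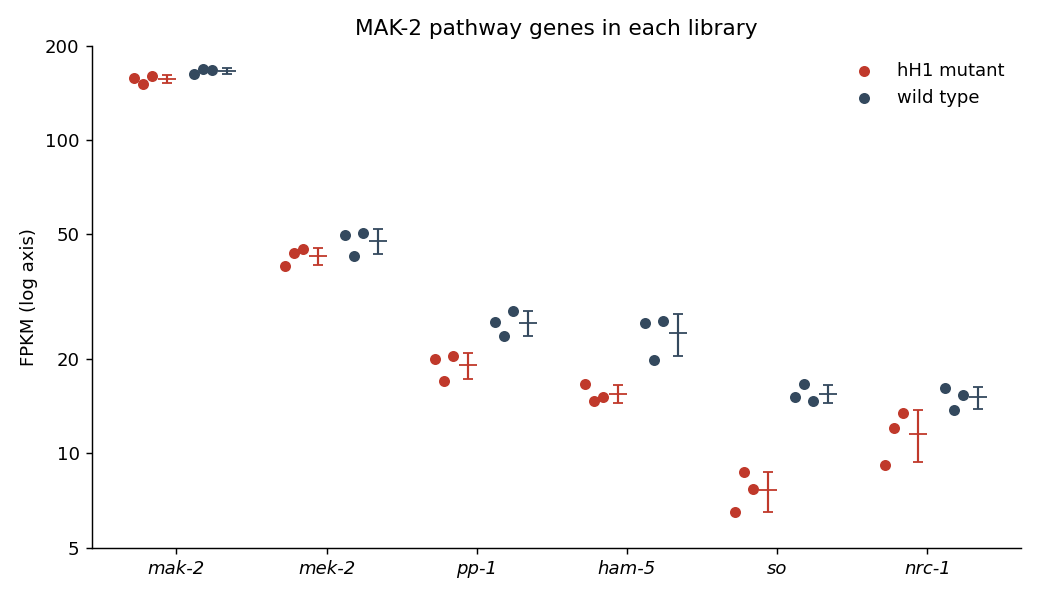
FPKM of the 6 genes (vertical axis, log scale) in the 3 *hH1* libraries (red, left of each pair) and the 3 wild-type libraries (dark, right of each pair), with the mean and SD beside the points. The *so* libraries sit between 6.49 and 8.73 FPKM in *hH1* and between 14.7 and 16.7 FPKM in the wild type, while the *mak-2* libraries sit between 151 and 169 FPKM in both strains together.

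The next question was whether these levels differed between the strains by more than the spread between libraries. Only *so* passed the test, at 7.63 ± 1.12 FPKM in *hH1* and 15.5 ± 1.02 FPKM in the wild type (SD, n = 3 each), a mean 50.8% lower. The difference was tested with limma across the 7208 genes that averaged 1 FPKM or more, on the scale of log2(FPKM + 1), which understates the change of low genes. The log2 change of *so* was -0.94 with a standard error of 0.16 (limma, Benjamini-Hochberg adjusted p = 0.0145), and over the alternatives tried its adjusted p ranged from 0.0112 to 0.0860. The call was lost without wild-type library 1 (adjusted p = 0.0860) or wild-type library 2 (adjusted p = 0.0570). Of all genes tested, 3.26% were called lower and 1.73% higher in *hH1*, and 1 of the 6 pathway genes was called lower and 0 were called higher. In bulk RNA, fewer cells that express a gene and less RNA per cell cannot be told apart.

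The scaffold gene *ham-5* fell just short of the threshold, at 15.5 ± 1.02 FPKM in *hH1* and 24.2 ± 3.66 FPKM in the wild type (SD, n = 3 each), a mean 35.7% lower. Its log2 change was -0.60 with a standard error of 0.15 (limma, adjusted p = 0.0533), and it passed only where the filter was raised to a mean of 5 FPKM (adjusted p = 0.0440). The transcription factor gene *pp-1* was at 19.1 ± 1.86 FPKM in *hH1* and 26.2 ± 2.41 FPKM in the wild type (SD, n = 3 each), with a log2 change of -0.43 and a standard error of 0.14 (limma, adjusted p = 0.0990). An unadjusted p under 0.05 was obtained for 3 of the 6 genes, *so*, *ham-5* and *pp-1*, all lower in *hH1*, and for 16.6% of all tested genes in that direction.

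None of the 3 kinase genes passed the threshold. For *nrc-1*, at 11.6 ± 2.19 FPKM in *hH1* and 15.1 ± 1.24 FPKM in the wild type (SD, n = 3 each), the log2 change was -0.37, with a 95% interval from -0.75 to 0.01 (limma, adjusted p = 0.203). Without the first *hH1* library, which was the lowest for *nrc-1*, the change was -0.23. For *mek-2*, at 42.7 ± 2.66 FPKM in *hH1* and 47.7 ± 4.33 FPKM in the wild type (SD, n = 3 each), the change was -0.16, with an interval from -0.44 to 0.13 (limma, adjusted p = 0.454). For *mak-2*, at 157 ± 4.50 FPKM in *hH1* and 166 ± 3.35 FPKM in the wild type (SD, n = 3 each), the change was -0.09, with an interval from -0.32 to 0.14 (limma, adjusted p = 0.618). The interval of *mak-2* leaves out a change as large as that of *so* in either direction. Each *hH1* library lay below each wild-type library in 5 of the 6 genes, all but *mek-2*, and in 21.8% of all tested genes. The reverse was seen in 0 of the 6 genes and in 10.4% of all tested genes. In the cell wall and osmosensing pathways, described below, 2 of 3 and 3 of 3 kinase genes were lower in *hH1* without overlap.

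The level of a whole library bears on these directions. With each library centred on its median, the median log2 change of all tested genes moved from -0.09 to 0.01, and the calls over all genes moved from 125 higher and 235 lower to 281 higher and 140 lower. On the centred scale the change was -0.84 for *so* (limma, adjusted p = 0.0179), -0.49 for *ham-5*, -0.33 for *pp-1*, -0.27 for *nrc-1*, -0.05 for *mek-2* and 0.02 for *mak-2*. Centring moved the change of every gene by the same amount, which left *mak-2* with the opposite sign.

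**Figure D2:**
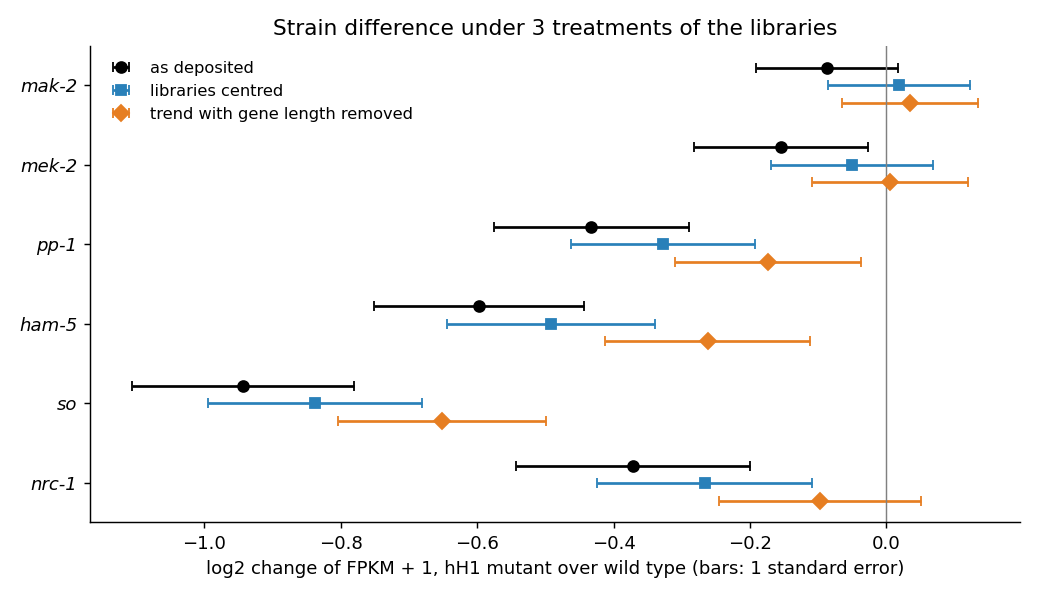
Log2 change of FPKM + 1, *hH1* over wild type (horizontal axis), for the 6 genes, as deposited (circles), with libraries centred (squares) and with the trend with gene length removed (diamonds), with bars of 1 standard error. The values of *so* stay between -0.94 and -0.65, while those of *mak-2* and *mek-2* lie between -0.16 and 0.03.

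Gene length moved with these differences. When 7207 tested genes of known length were divided into 5 bins of nearly equal size, the median log2 change was 0.12 in the bin of the shortest genes and -0.28 in the bin of the longest genes, which starts at 3598 bases (Spearman correlation of -0.355 across genes, which are not independent replicates). Of the pathway genes, *mak-2* (2864 bases) and *mek-2* (3165 bases) fall in the bin next to the longest, where the median change was -0.16. The other 4 genes fall in the bin of the longest: *pp-1* with 4282 bases, *nrc-1* with 4543, *so* with 4970 and *ham-5* with 6573. All of these 4 had a change below the median of that bin, from -0.37 for *nrc-1* to -0.94 for *so*. When each library's trend with length was removed, the change of *so* was -0.65 with a standard error of 0.15 (limma, adjusted p = 0.0516), just outside the threshold. It was then -0.26 for *ham-5*, -0.17 for *pp-1* and -0.10 for *nrc-1*, while *mek-2* (0.01) and *mak-2* (0.03) came to lie above 0. In that fit 0 of the 6 genes were called and only *so* had an unadjusted p under 0.05 (limma), while 1.6% of all genes were called lower. That fit also removes differences in the level of whole libraries. When only the slope with length was removed and the level kept, *so* remained called (log2 change -0.77, limma, adjusted p = 0.0313). The change was then -0.36 for *ham-5*, -0.30 for *pp-1*, -0.22 for *nrc-1*, -0.09 for *mek-2* and -0.04 for *mak-2*, and none of these was called.

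**Figure D3:**
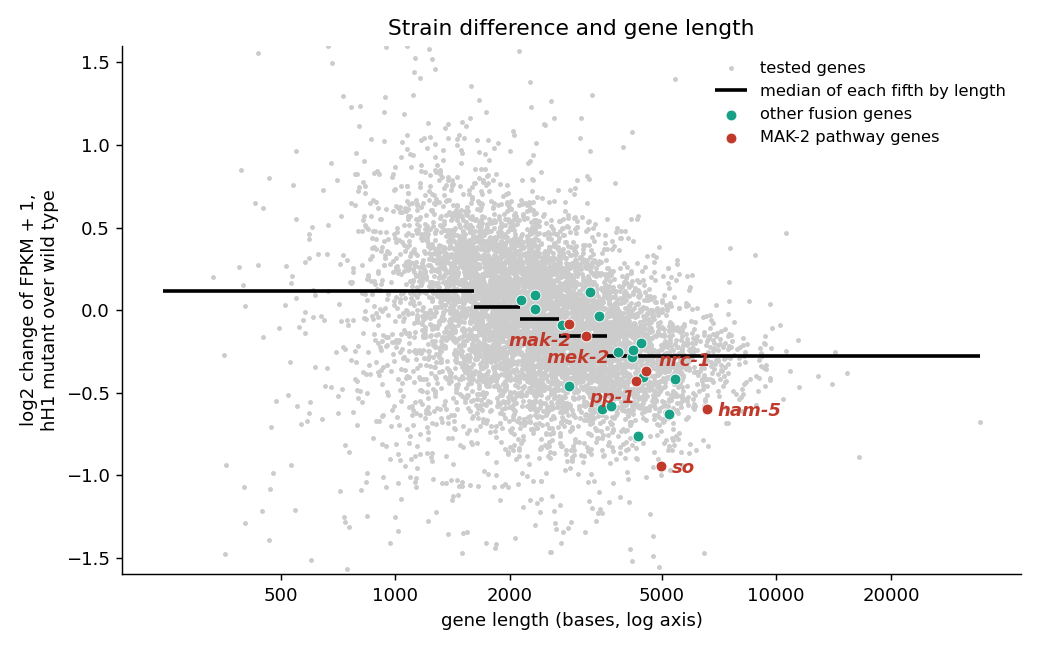
Log2 change of FPKM + 1, *hH1* over wild type (vertical axis), against gene length in bases (horizontal axis, log scale) for 7207 tested genes (grey), the 17 other fusion genes (green) and the 6 MAK-2 pathway genes (red, named), with the median of each of 5 bins by length as black lines. The medians step down from 0.12 in the bin of the shortest genes to -0.28 in that of the longest, *so* and *ham-5* lie below the line of the longest, and 28 genes lie outside the vertical axis.

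Ratios of FPKM within a library do not depend on how the libraries were scaled, so the balance of the pathway was also compared in this way. Ratios are given in FPKM, and they were compared between the strains on the scale of log2(FPKM + 1), where the added 1 lowers the weight of low values. The FPKM of *mak-2* was 24.4, 17.4 and 20.9 times that of *so* in the *hH1* libraries, against 10.7, 10.1 and 11.4 times in the wild-type libraries. The RNA level of *mak-2* thus stood further above that of *so* in every *hH1* library than in any wild-type library. Protein was not measured, and the ratio uses the same FPKM values as the test of *so* above, so it is not separate support. The FPKM of *mak-2* was 9.48, 10.3 and 10.6 times that of its scaffold gene *ham-5* in the *hH1* libraries, against 6.23, 8.46 and 6.35 times in the wild-type libraries. It was 7.92, 8.92 and 7.84 times that of the transcription factor gene *pp-1* in the *hH1* libraries, against 6.18, 7.12 and 5.89 times in the wild-type libraries. Both ratios were higher in *hH1* without overlap of the groups.

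Within the cascade, the ratio of *mek-2* to *mak-2* overlapped between the strains, at 0.251, 0.288 and 0.280 in the *hH1* libraries, against 0.307, 0.253 and 0.301 in the wild-type libraries. The ratio of *nrc-1* to *mek-2* did not, at 0.231, 0.276 and 0.301 in the *hH1* libraries, against 0.325, 0.322 and 0.303 in the wild-type libraries. In all, 8 of the 15 ratios between 2 of the 6 genes did not overlap between the strains on that scale, and 9 did not overlap as plain FPKM ratios. Of the 8, 7 had *mek-2* or *mak-2* on one side, and the other was that of *nrc-1* to *so*. Each of the 8 reached p = 0.1 in a two-sided exact permutation test, the smallest p that 3 libraries against 3 allow (0.188 after Benjamini-Hochberg adjustment over the 15 ratios, which share genes). The ratio that was added in plain FPKM was that of *pp-1* to *so*, at 3.08, 1.95 and 2.66 in the *hH1* libraries, against 1.74, 1.42 and 1.93 in the wild-type libraries, where *hH1* library 2 and wild-type library 3 nearly touched. The ratio of *ham-5* to *so* overlapped on both scales. The genes also differ in length, as given above, and the part of length in the ratios was not tested. Ratios between genes outside the pathway were not counted, so the share of such ratios that do not overlap is not known. Of all tested genes taken singly, 21.8% had every *hH1* library below every wild-type library, and 10.4% had the reverse.

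The next question was whether the annotated transcripts of a gene moved together. The genes *ham-5*, *mak-2* and *mek-2* have 2 annotated transcripts each, T0 and T1, between which Cuffnorm divided the fragments of the gene. For *ham-5*, transcript T0 was at 0.000831, 2.93 and 2.17 FPKM in the *hH1* libraries, against 7.27, 6.70 and 6.46 FPKM in the wild-type libraries. All wild-type values of T0 lay close together and above each *hH1* value, and the first *hH1* library was practically at 0. Transcript T1 of *ham-5* was at 16.7, 11.8 and 13.0 FPKM in the *hH1* libraries, against 18.8, 13.2 and 20.0 FPKM in the wild-type libraries, with overlap. T0 made up 11.4 ± 10.2% of the FPKM of *ham-5* in *hH1* and 28.6 ± 4.63% in the wild type (SD, n = 3 each; p = 0.1, the lowest possible, by exact permutation). This difference was -17.25 percentage points, and it was -11.56 without the first *hH1* library. Transcript shares were not computed for genes outside the pathway, so how often such shares do not overlap is not known. When transcripts were tested one by one, the log2 change of T0 was -1.75 with a standard error of 0.50 (limma, adjusted p = 0.125), and that of T1 was -0.30 with a standard error of 0.20 (limma, adjusted p = 0.413). At the level of transcripts 0.569% of 7908 were called and 22% had an unadjusted p under 0.05. Of the 9 transcripts of the pathway 0 were called, and T0 of *ham-5* and the transcripts of *pp-1* and *so* had an unadjusted p under 0.05 (limma).

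Transcript T1 carried most of the FPKM of both *mak-2* and *mek-2*. Transcript T0 of *mak-2* was at 3.95, 11.5 and 19.6 FPKM in the *hH1* libraries, against 19.0, 14.5 and 13.0 FPKM in the wild-type libraries. This spread among the *hH1* libraries was larger than the difference between the strains. T0 made up 7.45 ± 4.89% of *mak-2* in *hH1* and 9.34 ± 2.09% in the wild type, and 11.8 ± 2.18% of *mek-2* in *hH1* and 14.2 ± 6.19% in the wild type (SD, n = 3 each). Both shares overlapped between the strains. Division of fragments between transcripts that share most of their sequence is an estimate, and the sum over a gene is less affected by it.

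**Figure D4:**
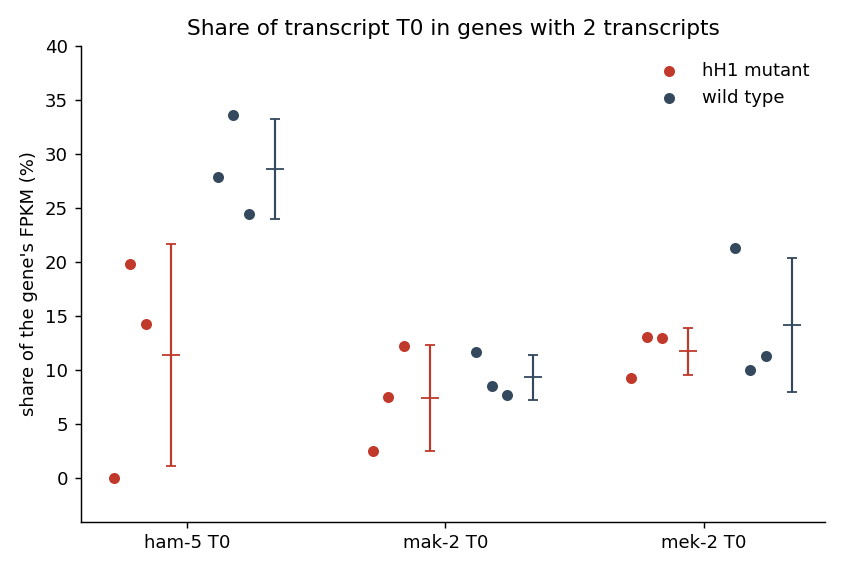
Share of the gene's FPKM given to transcript T0 (vertical axis, percent) for *ham-5*, *mak-2* and *mek-2* in the 3 *hH1* libraries (red, left of each pair) and the 3 wild-type libraries (dark, right of each pair), with mean and SD. For *ham-5* the means are 11.4% in *hH1* and 28.6% in the wild type without overlap, and for the other genes the points of the strains overlap.

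Other genes needed for fusion were taken from a list of 26 names, of which 17 were matched to the gene table by symbol or synonym. All 17 were tested, 3 were called lower in *hH1* and 0 higher, and 14 were not called, beside 3.26% called lower and 1.73% called higher of all tested genes. The median log2 change of the 17 was -0.25, beside -0.09 for all tested genes, and in 8 of them every *hH1* library lay below every wild-type library, as in 21.8% of all tested genes. With the trend with length removed, the median of the 17 was -0.03, close to that of all genes, and after centring it was -0.15, beside 0.01 for all genes. The 3 genes that fell were *ham-9*, *nox-1* and *ham-8*. *ham-9*, which encodes a protein required for fusion, was at 41.9, 44.6 and 45.9 FPKM in the *hH1* libraries, against 83.5, 74.7 and 69.1 FPKM in the wild-type libraries (log2 change -0.76, standard error 0.12, limma, adjusted p = 0.0120). It was the only gene of both lists that was still called with the trend with length removed (log2 change -0.50, adjusted p = 0.0498), and its call was lost without the first wild-type library (adjusted p = 0.0701). *nox-1*, the gene of an NADPH oxidase that makes reactive oxygen species, was at 67.2, 67.4 and 62.2 FPKM in the *hH1* libraries, against 109, 91.9 and 98.6 FPKM in the wild-type libraries (log2 change -0.60, standard error 0.12, limma, adjusted p = 0.0246). *ham-8*, the gene of a membrane protein, was at 86.2, 90.6 and 89.0 FPKM in the *hH1* libraries, against 154, 135 and 113 FPKM in the wild-type libraries (log2 change -0.58, standard error 0.13, limma, adjusted p = 0.0364). The *hH1* libraries of *ham-8* were close to each other, while the wild-type libraries were spread more widely. The call of *ham-8* held in 5 of 16 alternatives and that of *nox-1* in 10 of 16. Without wild-type library 1, 0 of the 17 genes were called (limma), and 1 was called without *hH1* library 2 or *hH1* library 3.

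The gene *cdc24*, which encodes a guanine nucleotide exchange factor, was at 14.01, 18.7 and 19.4 FPKM in the *hH1* libraries, against 30.8, 22.9 and 28.2 FPKM in the wild-type libraries (limma, log2 change -0.63, adjusted p = 0.0625). The STRIPAK genes *ham-2*, *ham-3*, *ham-4* and *mob-3* (NCU07674, *mob1-2* in the gene table), whose products belong to a phosphatase complex, had changes of -0.28, -0.25, -0.20 and 0.11, and none was called. The regulator gene *nor-1* of the NADPH oxidase had a change of -0.24, which was not called either. *adv-1*, the gene of a zinc cluster transcription factor, was at 38.2, 49.0 and 43.8 FPKM in the *hH1* libraries, against 62.5, 55.2 and 56.3 FPKM in the wild-type libraries (limma, log2 change -0.41, adjusted p = 0.0976). The genes *ham-6* (log2 change -0.46) and *ham-10* (-0.42) were lower in every *hH1* library without passing the test (limma, adjusted p of 0.0843 and 0.0953). The genes *ham-7* (0.01), *amph-1* (0.09) and *Prm1* (-0.04) showed overlapping groups.

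**Figure D5:**
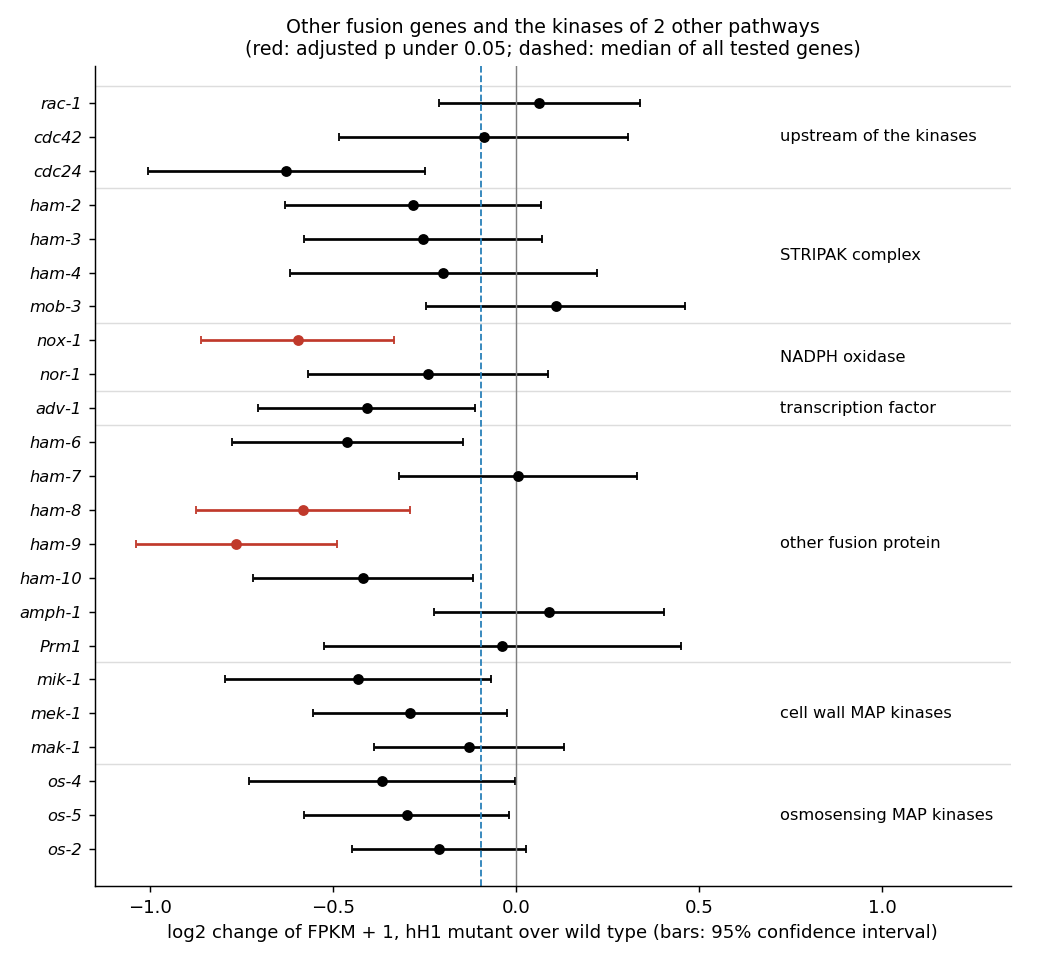
Log2 change of FPKM + 1, *hH1* over wild type (horizontal axis), with its 95% confidence interval for the 17 other fusion genes by role and for the 6 kinase genes of the cell wall and osmosensing pathways. The 3 called genes (red) lie between -0.76 and -0.58, no gene is called higher, and the dashed line marks the median of all tested genes, -0.09.

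The 3 kinase genes were also set against the kinases of the same step in the other MAP kinase cascades of *N. crassa*, the cell wall integrity pathway (*mik-1*, *mek-1*, *mak-1*) and the osmosensing pathway (*os-4*, *os-5*, *os-2*). None of these 6 genes was called (limma, adjusted p of 0.133 to 0.4998), and 4 of them, *mik-1*, *mek-1*, *os-4* and *os-5*, had an unadjusted p under 0.05, as had 16.6% of all tested genes in the same direction. Their log2 changes were -0.43 for *mik-1* and -0.37 for *os-4* at the first step, -0.29 for *mek-1* and -0.30 for *os-5* at the second, and -0.13 for *mak-1* and -0.21 for *os-2* at the third. The same order, with the largest change at the first step, was seen for *nrc-1*, *mek-2* and *mak-2*. The first-step genes are also the longest of each cascade, with 4543 bases for *nrc-1*, 7397 for *mik-1* and 5892 for *os-4*. With the trend with length removed the order was lost in the other cascades, with -0.08 for *mik-1* and -0.11 for *mek-1*, and -0.05 for *os-4* and -0.11 for *os-5*. The FPKM of *mak-2* was 1.83 ± 0.0962 times that of *mak-1* in *hH1* and 1.78 ± 0.123 times in the wild type, and 1.67 ± 0.0639 times that of *os-2* in *hH1* and 1.53 ± 0.0665 times in the wild type (SD, n = 3 each). Of 6 such ratios within a step, 5 overlapped between the strains. The exception was *mek-2* to *os-5*, at 1.34 ± 0.0284 in *hH1* and 1.21 ± 0.0683 in the wild type (SD, n = 3 each, two-sided exact permutation test, p = 0.1, adjusted over 6 ratios p = 0.6). The log2 ratio differed between the strains by at most 0.14 in these 6 comparisons. With 3 libraries per strain no ratio of any size could have passed the threshold.

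In budding yeast the matching pathway carries the response to pheromone, and the strains differed here in mating type genes. *matA-1* (NCU01958) averaged 2.72 FPKM in *hH1* and was listed at 0 in each library of the wild type, and the pheromone precursor gene *mfa-1* averaged 4.27 FPKM in *hH1* and 227 FPKM in the wild type. The pheromone gene *ccg-4* went the other way, with means of 3.77 FPKM in *hH1* and 0.0351 FPKM in the wild type (limma, log2 change 2.12, adjusted p = 0.0143). Of the other listed pheromone or receptor genes, *pre-1* overlapped between the strains, and *pre-2* averaged under 1 FPKM and was not tested. Mating type and the *hH1* mutation cannot be told apart in these libraries. Of the 6 pathway genes, only *so* lies on the chromosome of the mating type locus, 7250 kb away. The other fusion genes called lower in *hH1* also lie on it: *nox-1* 606 kb, *ham-9* 4252 kb and *ham-8* 7182 kb away. Fusion genes that were not called, such as *ham-4*, *ham-6*, *ham-7*, *ham-10* and *adv-1*, lie there too. The share of all tested or all called genes that lie on this chromosome was not counted. The part of position in these differences was not tested.

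Finally, the genes whose pattern over the 6 libraries was most like that of the pathway were looked up among 7202 other tested genes. With the mean log2 level of the 6 genes, the highest Pearson correlations over 6 libraries were found for NCU07282 (0.998), NCU01252 (0.998) and the fusion gene *ham-10* (0.996). With *mak-2* alone they were found for NCU04490 (0.992), NCU04675 (0.985) and NCU02674 (0.982). These are the largest of many values over few libraries that fall into 2 strains, and are given as a description.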

How the data were processed

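Libraries were strand-specific and made after removal of ribosomal RNA. The replicates are numbered in the labels without mention of separate cultures, so p-values measure the spread between these libraries, which may be technical. Per the labels, the authors aligned reads with TopHat2 2.0.14 and computed FPKM with Cuffnorm. The deposited table lists FPKM per transcript of the NC12 annotation for 6 libraries, with replicates kept apart, and how Cuffnorm scaled the libraries to each other is not given in the sources used here. Of its columns, 0 were unused. These are 6 of 22 samples, and the others were not analysed here.

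Gene values are sums over the transcripts of a locus number. Symbols, positions and lengths came from the RefSeq gene table of the same assembly, which listed 9729 of the 9730 genes. Values were tested as log2(FPKM + 1) with limma 3.58.1 in R 4.3.3 (two-sided, eBayes with trend). P-values were adjusted by Benjamini-Hochberg over the 7208 genes that averaged 1 FPKM or more, with a threshold of 0.05. Ratios and shares were compared by exact permutation of the 20 labelings. Depth was fitted so that low FPKM of 184 transcripts became whole fragments, using exon lengths from the study's annotation file, with whole numbers taken within 0.1 of a fragment. In simulated data for the *hH1* comparison with 7208 genes, limma called 69 of 100 genes with a planted log2 change of 1 and 93 of 100 with one of 2, with 3.57% false calls, and simulated depths were recovered within 1.39%. The noise simulated for limma was normal and independent, with each gene's own spread. It held no shift of whole libraries and no trend with gene length, so the share of false calls in the real libraries may differ. Other steps ran in Python 3.11.15 with scipy 1.17.1, and figures were drawn with matplotlib 3.10.9.

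Members and lists were chosen with earlier results of these data known. Genes are named by rule: the 6 members, the fusion genes that passed the threshold and the 4 with the largest change among the others, the 6 kinases of the cell wall and osmosensing pathways, *hH1*, the mating type and pheromone genes as checks, and the 3 genes most like the members' mean and most like *mak-2*. Other fusion genes and the markers were named after their values were seen. Of 26 listed fusion genes, 9 whose name the gene table gave neither as symbol nor as synonym were left out. The alternatives were the pseudocount, the filter, centring, quantile normalization, limma's variance settings, removal of the trend with gene length, transcripts in place of genes, and leaving out each library. Removing only the slope with length, with the level of each library kept, and leaving out libraries for the transcript share were added after the data were seen, as were ratios without a pseudocount. Of 3 fusion genes upstream of the kinases, 2 are counted, neither of them called, but their values are not reported here.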

Additional observations from a re-analysis of the deposited data

How the results depend on the processing

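No paired analysis was possible because the columns of the table carry no replicate number of the labels. The count of changed genes was 360 and fell to 188 without a filter (genes above 0 in at least 1 library), to 135 without limma's variance trend, to 224 with the trend with gene length removed, to 234 with its slope alone removed, and to 45 with transcripts tested on their own. Leaving out 1 library in turn gave 29 to 372 genes: 217, 111 and 135 without *hH1* library 1, 2 or 3, and 29 and 119 without wild-type library 1 or 2. The call of *so* was kept in 12 of 16 alternatives and lost with the length trend removed (-0.65), with transcripts tested on their own (-0.94, adjusted p = 0.0530), and without the first or the second wild-type library (adjusted p of 0.0860 and 0.0570), and its log2 change was -1.03 to -0.84 over the 6 fits that left out 1 library. *ham-5* (-0.60) passed only with a mean of at least 5 FPKM. The sign turned, without a call, for *mek-2* (0.0053) and *mak-1* (0.11) with the length trend removed, and for *mak-2* there (0.034) and after centring (0.018). Among other fusion genes named with values, it also turned with the length trend removed for *nor-1* (0.014), *ham-4* (0.069) and *Prm1* (0.15), none called, and *ham-7*, *amph-1* and *Prm1*, whose changes were near 0, turned under other alternatives too. The changes of *nrc-1* and *pp-1* kept sign and side of the threshold in all 16 alternatives. The count of 3 fusion genes lower in *hH1* became 1 without the variance trend and 1 with the length trend removed, and was 0 to 3 with 1 library left out (0 without wild-type library 1). *nox-1* and *ham-8* lost their calls in 6 and 11 of 16 alternatives. Of the 15 ratios between members, 9 did not overlap with a pseudocount of 0.1 and 9 without one, 8 to 11 did not overlap with 1 library left out, and of the 6 ratios within a step 1 to 2. With fewer libraries, groups overlap less by construction. The causes of the other shifts were not tested.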

Other observations

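Position was shared by several of the fusion genes. *so*, *ham-8*, *ham-10* and *ham-6* lie within 315 kb of LG I (8960384 to 9275044 of NC12), a stretch chosen after their values were seen. It holds 63 genes, of which 54 were tested. In this stretch 2 genes were called lower in *hH1* (limma), *so* and *ham-8*, and 0 were called higher. These are 3.7% of the tested genes there, beside 3.26% called lower of all tested genes, and both were among the genes that defined the stretch. Every *hH1* library lay below every wild-type library in 17 of the 54 genes (31.5%), and their median log2 change was -0.20, with a median gene length of 3010 bases. Over all tested genes 21.8% had *hH1* below the wild type in this way and the median change was -0.09. Other fusion genes that were lower in every *hH1* library than in any wild-type library lie outside this stretch. Of these, *nox-1*, *ham-9* and *adv-1* are also on LG I, *cdc24* is on LG VII and *ham-3* is on LG II. *adv-1* and *ham-9* lie close together, with 12871 bases and 1 gene between them. No test was made of these positions.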
